A study of Mus musculus with 6 samples.

Results

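The Bcl2 family decides whether the mitochondria of a stressed cell release the factors that start apoptosis. The 10 family genes described here were taken by symbol from the rows of an expression array that carry exactly 1 annotated gene symbol, and are Bcl2, Bcl2l1, Mcl1, Bak1, Bcl2l15, Bcl2l11, Bid, Bik, Bad and Bmf. Each had 1 such row, so no choice between rows was needed, and they were 10 of 19938 genes tested. RNA came from preparations of total epithelial cells of the jejunum, the part of the small bowel between duodenum and ileum, in mice, with 3 control and 3 transgenic animals and 1 array per animal.

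All 6 animals drank doxycycline for 24 h and carried R26-M2rtTA, which makes a transcriptional activator that needs doxycycline, from a locus active in most cell types. The transgenic animals also carried a Musashi gene under TRE, the promoter that this activator switches on. The series text names the transgene TRE-Msi1, and the genotype label of these samples reads TRE-MSI2. Msi1 and Msi2 encode RNA-binding proteins known from stem and progenitor cells. No group lacked doxycycline or was sampled at another time, and the labels give no strain, sex or age.

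Family members fall into classes by what they do at the mitochondrial outer membrane. Survival proteins hold the pore-forming effectors in check, and BH3-only proteins, named for the short domain with which they bind, relieve that check or activate the effectors directly. In the intestine the family is known for setting how readily crypt cells die after damage, and Bcl2l1 and Mcl1 are known to keep epithelial cells alive.

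Values are log2 signals, on which a difference of 1 is a doubling, and differences are transgenic minus control. Array medians lay between 6.27 and 6.34. The Msi1 signal was 6.86 to 7.03 on the control arrays and 12.51 to 12.68 on the transgenic arrays, which separates the groups as the series text does, while Msi2 was 8.59 to 8.71 and 8.01 to 8.57. Transgenic replicate 1 stood apart, with correlations across genes of 0.922 to 0.951 with the other arrays, so each result on the 10 genes is given with and without it. Of the markers of the labelled cell type, Epcam lay at 11.94 to 12.15 on the controls. Of these 12 markers 1 passed, beside 11.9% of all genes, namely Cdh1, which rose by 0.34. With 3 arrays a group the number of arrays limits precision, and an exact two-sided permutation test cannot go below p = 0.1.

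Of the 10 genes, 2 rose and 1 fell in the transgenic epithelium. Bcl2l15, a family member of unsettled role that is known from the gastrointestinal tract, rose 4.17-fold. The survival gene Mcl1 rose 1.42-fold, and Bad, a BH3-only gene, fell to 0.666 of the control signal. The 3 calls of 10 stand beside a background of 11.9% of all genes called (6.04% higher and 5.84% lower) at a limma adjusted p under 0.05. The groups did not overlap for 4 of the 10, against 34.2% of all genes (16.0% higher and 18.2% lower), a share near the background. The median difference over the 10 genes was 0.05, beside -0.04 over all genes. Without transgenic replicate 1 there were 3 genes higher and 2 lower, against a background of 28.6% of all genes (14.0% higher and 14.5% lower), with Bcl2l1 and Bak1 added to the calls. On these 5 arrays the groups did not overlap for 6 of the 10, beside 48.4% of all genes (22.7% higher and 25.7% lower).

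The promoter sequences of the 3 genes that passed are shown because that of Bcl2l15, the gene with the largest difference, is poorer in G and C than those of Mcl1 and Bad and holds another of the motifs searched. Each is the stretch of 250 bases before the annotated start of transcription, 5′ to 3′ on the strand of the gene, from RefSeq on build GRCm38.p6. Capitals mark matches to the motifs searched.
Bcl2l15: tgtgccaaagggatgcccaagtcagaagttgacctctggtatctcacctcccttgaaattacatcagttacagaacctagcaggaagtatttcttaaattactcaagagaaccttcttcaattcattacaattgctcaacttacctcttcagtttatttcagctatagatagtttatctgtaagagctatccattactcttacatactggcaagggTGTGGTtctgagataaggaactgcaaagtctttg
Mcl1: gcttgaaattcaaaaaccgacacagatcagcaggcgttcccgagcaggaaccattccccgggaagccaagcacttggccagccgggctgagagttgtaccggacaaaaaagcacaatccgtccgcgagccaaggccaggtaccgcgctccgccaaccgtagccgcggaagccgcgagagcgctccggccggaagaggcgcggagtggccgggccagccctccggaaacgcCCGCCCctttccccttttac
Bad: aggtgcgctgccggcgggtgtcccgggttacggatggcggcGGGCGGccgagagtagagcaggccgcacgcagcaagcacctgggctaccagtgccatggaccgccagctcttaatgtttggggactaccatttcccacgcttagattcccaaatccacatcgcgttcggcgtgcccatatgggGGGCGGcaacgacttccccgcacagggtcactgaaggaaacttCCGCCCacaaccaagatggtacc
They lie at chr3:103832446-103832695 on the plus strand for Bcl2l15, chr3:95658471-95658720 on the plus strand for Mcl1 and chr19:6941611-6941860 on the plus strand for Bad. The windows of Bcl2l15 and Mcl1 overlap the annotated span of their own gene, and the window of Bad overlaps the span of its neighbour Gpr137. How far each overlap reaches was not analysed. Bad has another annotated start, not printed here, and the array row does not tell the starts apart.

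The Bcl2l15 window held 38.8% G and C, the lowest of the 15 windows of 9 family genes, whose highest value was 74.8%, for Bcl2. Over all 32851 windows of this length the median was 52.4%, and 9.7% of windows were lower than that of Bcl2l15. Mcl1 had 64.4% and Bad 62.8%. The motifs, searched on both strands, were the TATA box as TATAAA, the CAAT box as CCAAT, the GC box as GGGCGG, the E-box as CACGTG, the AP-1 site as TGANTCA, the STAT site as TTCNNNGAA, the EGR site as GCGNGGGCG, the RUNX site as TGTGGT, the HIF core as ACGTG, which the E-box contains, and the CRE as TGACGTCA. An EGR match can share bases with a GC box.

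Only the GC box was matched in the windows shown for Mcl1 and Bad, once in Mcl1 at -20 to -15 and 3 times in Bad, with -1 as the base before the start. The window of the other Bad start held no GC box and 1 CAAT box, at -48 to -44. The Bcl2l15 window had 1 match, TGTGGT at -34 to -29. These letters were not particular to it among the family, as the Bak1 window held them at -221 to -216 and a Bmf window also held them. The GC box occurs in 32.7% of all windows and TGTGGT in 14% of them. Of the 15 family windows 6 held a GC box and 4 held none of the 10 motifs. A match is a string of letters and no evidence of binding, and the windows of the genes that rose, Bcl2l15 and Mcl1, shared no motif of this set.

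**Figure D1:**
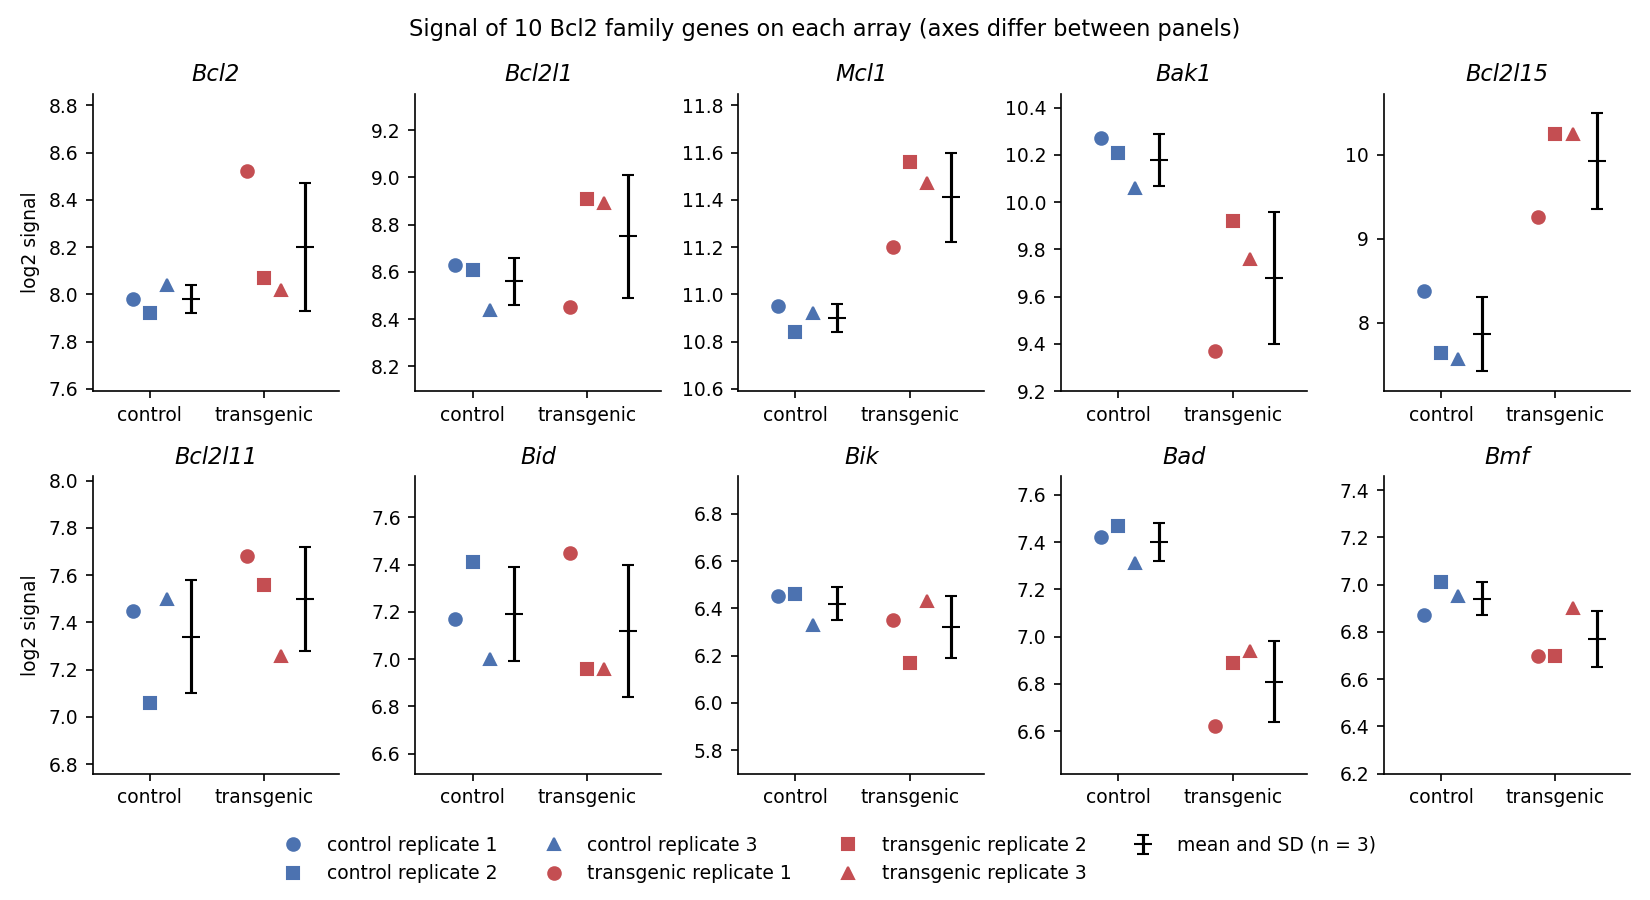
Log2 signal (vertical axes, which differ between panels) of 10 Bcl2 family genes on each control (blue) and transgenic (red) array, with symbols for replicates 1, 2 and 3 and black bars for the mean and SD of 3 arrays. The groups are apart for Mcl1, Bak1, Bcl2l15 and Bad, and for Bcl2 and Bcl2l1 transgenic replicate 1 lies away from transgenic replicates 2 and 3.

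Among the survival genes Mcl1 was the one that passed. Mcl1 encodes a short-lived protein that holds Bak1 and the BH3-only protein Bim in check. Its signal (row 10494306) was 10.95, 10.84 and 10.92 on the control arrays and 11.20, 11.56 and 11.47 on the transgenic arrays. All 3 transgenic arrays lay above all 3 controls, with replicate 1 the lowest of them. The means were 10.90 ± 0.06 and 11.41 ± 0.19 (SD, n = 3 each), a difference of 0.51 (SE 0.114, 95% interval 0.23 to 0.79, limma adjusted p = 0.0393). Without transgenic replicate 1 it was 0.61 with an adjusted p of 9.45e-04, and the call was lost when any other array was left out (0.0947 to 0.156).

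Bcl2l1, which encodes the survival protein Bcl-xL and its shorter, death-promoting splice form, did not pass. It had 8.63, 8.61 and 8.44 on the controls and 8.45, 8.91 and 8.89 on the transgenic arrays (row 10488655). Transgenic replicate 1 lay within the range of the controls, and transgenic replicates 2 and 3 lay above it. The difference was 0.19 (SE 0.148, 95% interval -0.17 to 0.55, limma adjusted p = 0.518). Bcl2l1 rose without transgenic replicate 1, by 0.34, or 1.27-fold (SE 0.0915, adjusted p = 0.0228). The row does not separate the splice forms.

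Bcl2, the founding survival gene of the family, had 7.98, 7.92 and 8.04 on the controls against 8.52, 8.07 and 8.02 on the transgenic arrays (row 10357043). Transgenic replicate 1 was the high array, and transgenic replicates 2 and 3 were within or just above the control range. The difference of 0.22 did not pass (SE 0.146, 95% interval -0.13 to 0.58, limma adjusted p = 0.43), and it was 0.07 without transgenic replicate 1. Transgenic replicate 1 deviated in opposite directions for these survival genes: it was 0.47 above the mean of transgenic replicates 2 and 3 for Bcl2 and 0.45 below it for Bcl2l1.

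Bak1 encodes a pore-forming effector that sits in the outer mitochondrial membrane and opens it when activated. Its signal (row 10449303) was 10.27, 10.21 and 10.06 on the controls and 9.37, 9.92 and 9.76 on the transgenic arrays. Every transgenic array lay below every control, and replicate 1 lay lowest. The difference of -0.49 did not pass (SE 0.156, 95% interval -0.87 to -0.11, limma adjusted p = 0.107), and the SD was 0.28 in the transgenic group and 0.11 in the controls. Bak1 fell without transgenic replicate 1, with a difference of -0.34 (SE 0.0991, adjusted p = 0.0345).

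Bcl2l15 had the largest difference of the 10 genes. Its signal (row 10494972) was 8.37, 7.64 and 7.57 on the controls and 9.26, 10.25 and 10.25 on the transgenic arrays. The groups were apart, with control replicate 1 the nearest control and replicate 1 the lowest transgenic array. The means were 7.86 ± 0.44 and 9.92 ± 0.57 (SD, n = 3 each), a rise of 2.06 (SE 0.342, 95% interval 1.23 to 2.89, limma adjusted p = 0.0159) or 4.17-fold (2.34 to 7.42). It was the rise of rank 75 among 19938 genes. The rise was 2.39 on the arrays other than transgenic replicate 1, or 5.24-fold (adjusted p = 1.13e-04). The call was kept without control replicate 1 (0.0399) and lost without control replicate 2 or 3 and without transgenic replicate 2 or 3, with adjusted p up to 0.08.

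Of the 5 BH3-only genes 1 fell and 0 rose, beside 5.84% of all genes lower, with a median difference of -0.10. Bad encodes a protein that binds Bcl-xL and Bcl2 and is held inactive by phosphorylation and 14-3-3 proteins. Its signal (row 10461017) was 7.42, 7.47 and 7.31 on the controls and 6.62, 6.89 and 6.94 on the transgenic arrays, so that the groups were apart. The difference was -0.59 (SE 0.113, 95% interval -0.86 to -0.31, limma adjusted p = 0.0248). It was -0.49 without transgenic replicate 1 (adjusted p = 0.00342). The call was also kept without transgenic replicate 3 (0.0406) and lost without transgenic replicate 2 and without each of the controls (up to 0.114).

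The other BH3-only genes did not pass with or without transgenic replicate 1. Bcl2l11, which encodes Bim, an activator of the effectors, ranged from 7.06 to 7.50 on the controls and from 7.26 to 7.68 on the transgenic arrays (row 10475866). Its difference was 0.17 (95% interval -0.24 to 0.57, limma adjusted p = 0.628), and 0.08 without transgenic replicate 1 (0.812). Bid, which carries the signal of death receptors to the mitochondria after cleavage by caspase 8, had 7.17, 7.41 and 7.00 on the controls and 7.45, 6.96 and 6.96 on the transgenic arrays (row 10547531). Both groups of Bid held a high array near 7.4, and its difference of -0.07 (95% interval -0.50 to 0.35, limma adjusted p = 0.865) changed sign when control replicate 2 or transgenic replicate 2 or 3 was left out. The Bid difference was -0.23 without transgenic replicate 1 (adjusted p = 0.217).

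Bik and Bmf lay in narrow ranges. Bik, a BH3-only gene whose product acts at the endoplasmic reticulum, ranged from 6.33 to 6.46 on the controls and from 6.17 to 6.43 on the transgenic arrays, with a difference of -0.10 (row 10425801, 95% interval -0.34 to 0.14, limma adjusted p = 0.634) and of -0.11 without transgenic replicate 1 (0.529). Bmf, whose product is tethered to the actin and myosin V cytoskeleton, had 6.87, 7.01 and 6.95 on the controls and 6.70, 6.70 and 6.90 on the transgenic arrays (row 10486112). Transgenic replicate 3 of Bmf lay among the controls and transgenic replicates 1 and 2 lay below them. The Bmf difference was -0.18 (95% interval -0.41 to 0.05, limma adjusted p = 0.327), and -0.14 without transgenic replicate 1 (0.365). The intervals over all arrays still allow falls to 0.793 of the control signal for Bik and 0.754 for Bmf.

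**Figure D2:**
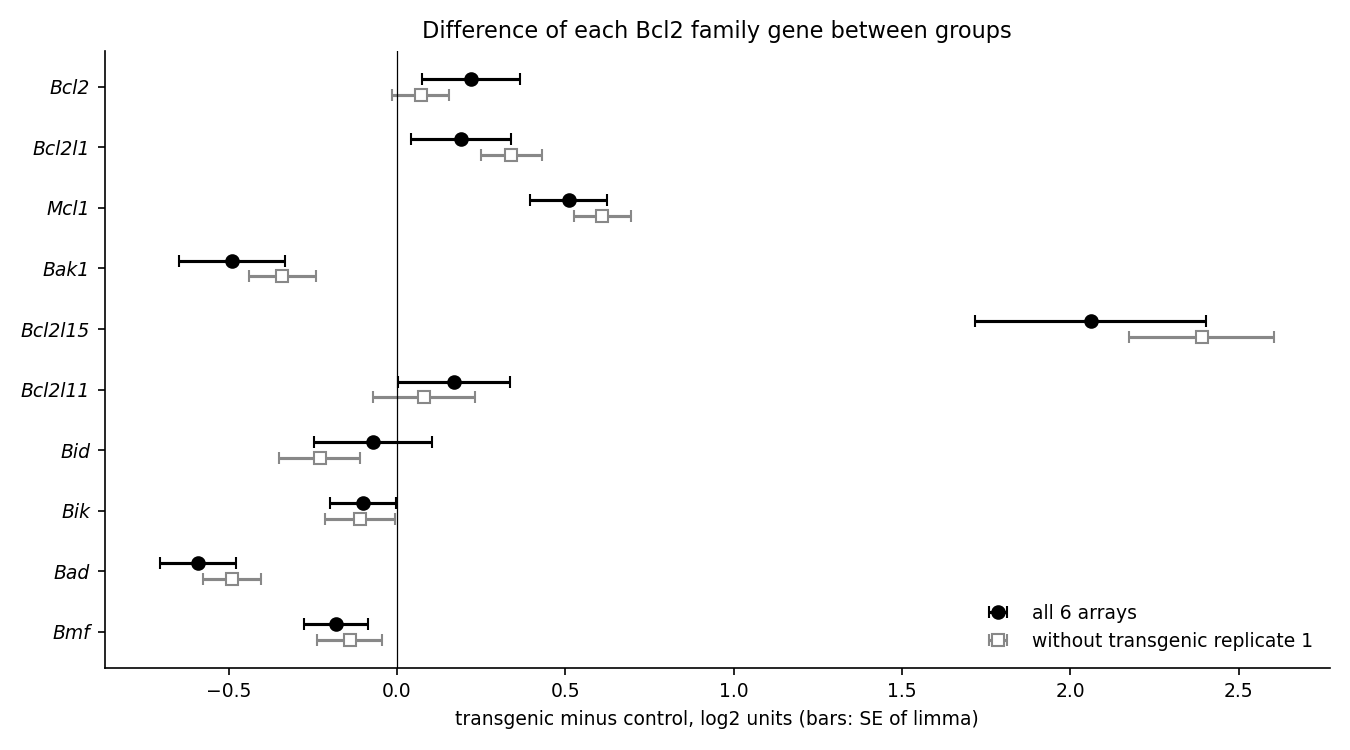
Difference between transgenic and control arrays (horizontal axis, log2 units) for each of the 10 genes, with all 6 arrays (filled circles) and without transgenic replicate 1 (open squares), and bars for the limma standard error. Bcl2l15 lies at 2.06 and 2.39, Mcl1 at 0.51 and 0.61 and Bad at -0.59 and -0.49, while Bcl2l1 goes from 0.19 to 0.34 and Bak1 from -0.49 to -0.34.

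The 10 genes varied more among the transgenic arrays than among the controls, as most genes did. The SD was larger in the transgenic group for 9 of the 10, and for 77% of all genes. Transgenic replicate 1 lay outside the range of transgenic replicates 2 and 3 for 9 of the 10 genes, the exception being Bik, and it was the transgenic array farthest from the control mean for 6 of them. It lay below transgenic replicates 2 and 3 for Bcl2l15 (-0.98), Bak1 (-0.47), Bcl2l1 (-0.45), Mcl1 (-0.31) and Bad (-0.30). Leaving it out therefore raised the differences of Mcl1, Bcl2l1 and Bcl2l15 and brought those of Bak1 and Bad nearer to 0.

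For each gene that passed, the gene with the most similar profile was sought among the genes tested. Predicted genes, RIKEN clones, small RNAs and genes with provisional names were left out. The measure was the smallest root mean square difference over 6 arrays after subtraction of each gene's control mean. For Mcl1 it was Jmjd1c, at a distance of 0.028, with a difference of 0.54 (limma adjusted p = 0.0278). For Bad it was Fbxl15, at 0.019, with a difference of -0.60 (adjusted p = 0.0251). For Bcl2l15 it was Cd59a, at 0.153, with 7.18, 6.63 and 6.78 on the controls and 8.44, 9.39 and 9.13 on the transgenic arrays and a difference of 2.12 (adjusted p = 0.00725). Cd59a encodes a surface inhibitor of complement. Like Bcl2l15 it was highest among the controls on replicate 1 and lowest among the transgenic arrays on replicate 1. It was picked for its likeness over these same values, so the shared pattern is no separate result.

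Of the other genes of the family 12 of 16 listed were measured, and 2 rose and 0 fell, beside a background of 6.04% higher. Pmaip1, which encodes the BH3-only protein Noxa that binds Mcl1, reached at most 8.51 on the controls (8.20 ± 0.28, SD, n = 3) and had 9.24, 11.10 and 11.08 on the transgenic arrays. The groups were apart, and transgenic replicates 2 and 3 lay well above replicate 1. The difference was 2.27 (SE 0.517, limma adjusted p = 0.0408) and 2.89 without transgenic replicate 1 (adjusted p = 9.16e-06). Bcl2l2, which encodes the survival protein Bcl-w, rose by 0.40, from 7.42 to 7.51 on the controls to 7.72 to 7.96 on the transgenic arrays (adjusted p = 0.0472). Both calls held without transgenic replicate 1 and were lost without any other array (up to 0.159 and 0.173).

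The rest of the family did not pass with all arrays. Bcl2l13, a mitochondrial membrane protein, differed by 0.67 (limma adjusted p = 0.0761), with all transgenic arrays above all controls, and rose by 0.46 without transgenic replicate 1 (adjusted p = 0.00562). The BH3-only genes Bbc3 and Hrk differed by -0.21 (adjusted p = 0.279) and -0.17 (0.54), and the effector-like gene Bok by 0.18 (0.312). Bnip3 ranged from 7.79 to 8.20 on the controls, and its transgenic values were 6.61 for replicate 1, 8.40 for replicate 2 and 8.20 for replicate 3, with a difference of -0.26 (0.805), and its relative Bnip3l, which also serves in the removal of mitochondria, differed by -0.07 (0.839). Bcl2l12 differed by -0.21, Bcl2l14 by 0.07, Bcl2l10 by 0.06 and Bnipl by 0.09, with adjusted p from 0.295 to 0.888. Bax was not analysed here, and the rows of the Bcl2a1 copies carry several symbols and were not named.

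Proteins that bind, hold, stabilise or degrade family members were taken as a list of 30 genes, of which 28 were measured. In this list 1 rose and 3 fell, beside 6.04% and 5.84% of all genes, and its median difference was 0.00. Mtch2, a receptor for cleaved Bid on mitochondria, had 11.76 to 11.89 on the controls and 10.80 to 10.95 on the transgenic arrays (difference -0.93, SE 0.0834, limma adjusted p = 0.00279). Usp9x, a deubiquitinase known to stabilise the Mcl1 protein, had 10.02 to 10.13 and 8.81 to 9.13 (difference -1.15, SE 0.108, adjusted p = 0.00321). The groups were far apart for both, and both remained called in all 6 fits without 1 array (up to 0.0271 and 0.0298).

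Dynll2, the dynein light chain that tethers Bmf, fell by 0.91 (limma adjusted p = 0.0103). Bag3, a co-chaperone that binds Bcl2, rose by 0.76 (adjusted p = 0.00943). Dynll2 and Bag3 each kept the call in 4 of the 6 fits that leave out 1 array. The list had 5 genes higher and 7 lower without transgenic replicate 1, beside 14.0% and 14.5% of all genes, and 2 to 4 were called without any other array.

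**Figure D3:**
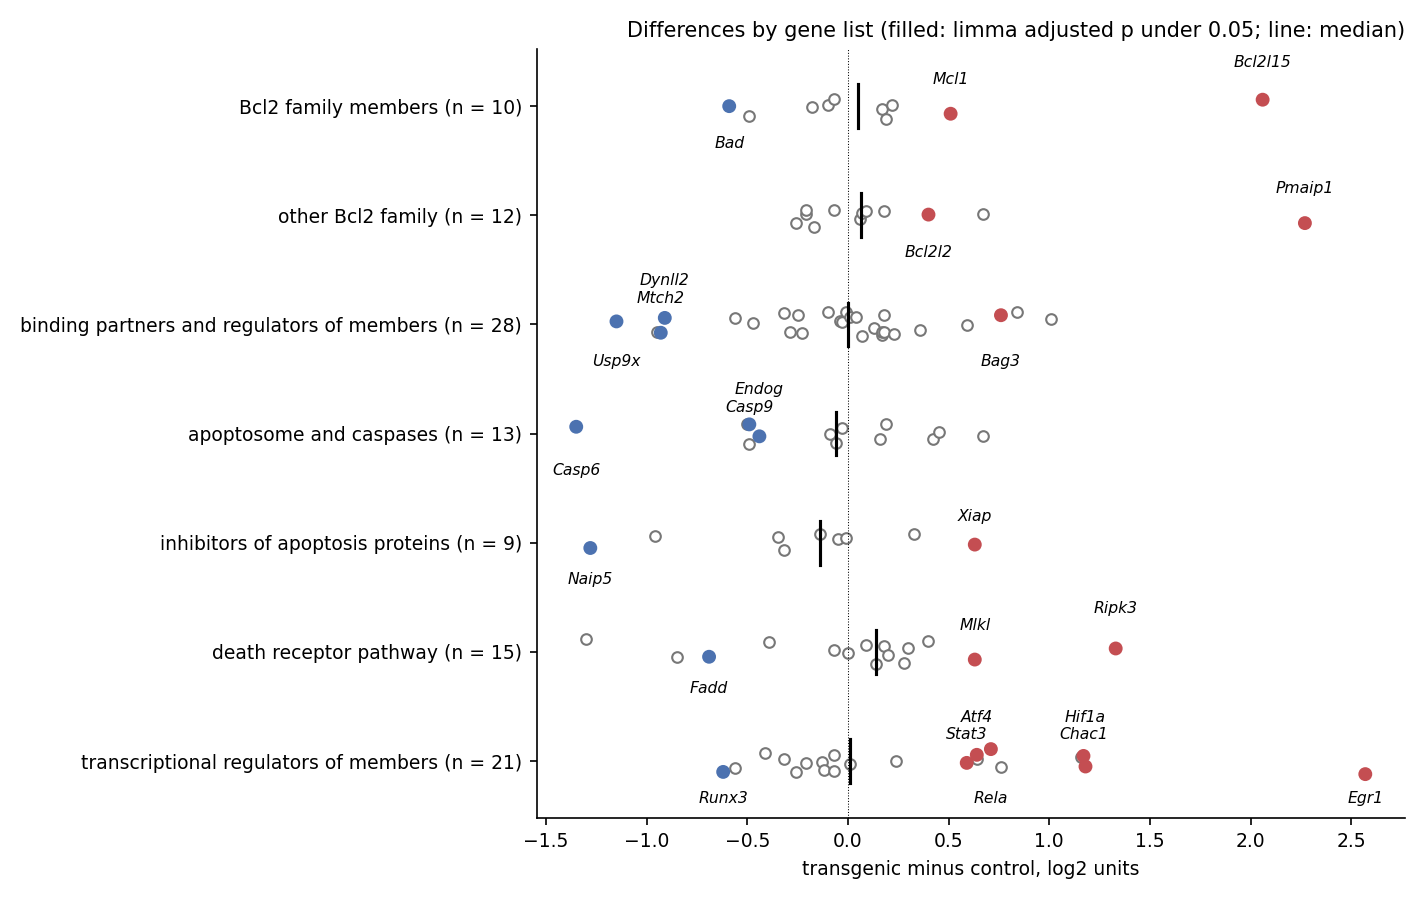
Difference between transgenic and control arrays (horizontal axis, log2 units) for every measured gene of the Bcl2 family members and of 6 related lists, 1 point per gene, with filled points and names for genes that passed and a vertical line for the median of each list. Bcl2l15 and Pmaip1 are the genes beyond 2 among the family, and list medians lie between -0.14 and 0.14.

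Downstream of the mitochondria, genes of the apoptosome and the caspases had a median difference of -0.06, and of 13 measured 3 fell and 0 rose, beside 5.84% and 6.04% of all genes. Casp9, the initiator caspase that the apoptosome activates, fell from 8.01 to 8.09 on the controls to 7.48 to 7.65 on the transgenic arrays (difference -0.49, limma adjusted p = 0.0169). Endog, a mitochondrial nuclease, fell by 0.44 (adjusted p = 0.032), and the executioner caspase Casp6 differed by -1.35 (adjusted p = 0.0497). The Casp6 values were 11.27, 11.12 and 11.15 for the controls and 9.05, 10.25 and 10.21 for the transgenic replicates, and it fell by 0.95 without that array (adjusted p = 1.18e-04). The count was 1 higher and 5 lower without transgenic replicate 1, beside 14.0% and 14.5% of all genes, and 0 to 2 were called without any other array.

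Of 9 inhibitors of apoptosis proteins 1 rose and 1 fell, with a median of -0.14, beside 6.04% and 5.84% of all genes. Xiap, which blocks caspases directly, rose from 9.33 to 9.61 on the controls to 9.85 to 10.30 on the transgenic arrays (difference 0.63, limma adjusted p = 0.0396). Naip5, known as a sensor of bacterial flagellin, differed by -1.28 (adjusted p = 0.0442) and by -0.94 without transgenic replicate 1. Naip5 has close paralogs, so that its row may share signal with them. Both calls were lost without any array other than transgenic replicate 1 (up to 0.155 and 0.169). Without transgenic replicate 1 the list had 1 higher and 4 lower, beside 14.0% and 14.5% of all genes.

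Genes of the death receptor route, which meets the family at Bid, had a median of 0.14, and of 15 measured 2 rose and 1 fell, beside 6.04% and 5.84% of all genes. Ripk3, the kinase that starts necroptosis, had 8.48, 8.73 and 8.57 on the controls and at least 9.89 on each transgenic array. The groups were far apart, and the rise of 1.33 (SE 0.0955, limma adjusted p = 0.00158) was called in all 6 fits without 1 array (up to 0.0173). Mlkl, the membrane-lysing protein that Ripk3 phosphorylates, rose by 0.63 (adjusted p = 0.042). Fadd, the adaptor that recruits caspase 8 to death receptors, fell from 7.59 to 7.88 on the controls to 6.92 to 7.23 on the transgenic arrays, with a difference of -0.69 (adjusted p = 0.0228). Mlkl and Fadd each kept the call in 2 of the 6 fits that leave out 1 array (up to 0.164 and 0.108). Without transgenic replicate 1 there were 6 higher and 1 lower, beside 14.0% and 14.5% of all genes, and 1 or 2 genes were called without any other array.

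Of 21 genes listed as regulators of family members 6 rose and 1 fell, with a median of 0.01, beside 6.04% and 5.84% of all genes. The 6 include Chac1, a target of the listed factor Atf4 rather than a regulator itself. Hif1a, the oxygen-regulated factor, rose by 1.18 (SE 0.0939, limma adjusted p = 0.00196), and Rela, the main activating NF-kB subunit, by 0.71 (SE 0.0733, adjusted p = 0.00404). The immediate early factor Egr1 rose from 6.39 to 6.81 on the controls to 8.66 to 9.68 on the transgenic arrays (difference 2.57, adjusted p = 0.0043). Runx3, a factor known to control Bcl2l11 in other epithelia, fell by 0.62 (adjusted p = 0.0106). Hif1a, Rela and Egr1 were called in all 6 fits without 1 array, and Runx3 in 3 of them (up to 0.0613).

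Stat3, a known activator of Mcl1, rose by 0.59 (10.30 to 10.40 on the controls against 10.74 to 11.07, limma adjusted p = 0.0243), and Atf4 rose by 0.64 (adjusted p = 0.0348). Chac1, which is a glutathione-degrading target of Atf4 and no transcription factor itself, rose by 1.17 (adjusted p = 0.0489). Stat3, Atf4 and Chac1 are named beyond the naming rule, after their values were seen. The Stat3 and Atf4 calls held only without transgenic replicate 1 and were lost without any other array (up to 0.104 and 0.122), and Chac1 was called in 2 of the 6 fits. Without transgenic replicate 1 the list had 10 higher and 3 lower, beside 14.0% and 14.5% of all genes, and 3 or 4 were called without any other array. Trp53 was not analysed here.

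Cell type markers moved with the arrays on which the family genes were measured. In bulk RNA, fewer cells of a type and less RNA per cell cannot be told apart. In T lymphocytes Bcl2 is known as a survival gene and Bcl2l11 as a gene that drives their death. Of 12 measured lymphocyte markers 1 fell, Cd8b1 by 0.55 (limma adjusted p = 0.0101), beside 5.84% of all genes lower. The median difference of these markers was -1.15. Their summed linear signal was 3871 to 4866 on the controls, and 611, 2939 and 2929 on transgenic replicates 1, 2 and 3. On the 5 arrays without transgenic replicate 1 there were 7 of the 12 lower, beside 14.5% of all genes, with a median of -0.49. No RMA signal is 0, and Cd3e, a defining marker, lay at 8.79 to 9.18 on the controls. Other markers of the list were dim. Cd3d lay at 5.38 to 5.61 on the controls and the called Cd8b1 at 5.88 to 5.93, both below the median of every array.

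The background for the marker counts that follow is 6.04% of all genes higher and 5.84% lower on all arrays. Without transgenic replicate 1 it is 14.0% higher and 14.5% lower. The median of enterocyte markers relative to the controls was -2.23 on transgenic replicate 1 and, for transgenic replicates 2 and 3 averaged, -0.11, and 0 of 12 passed, against 4 lower without transgenic replicate 1. Their summed linear signal was 67961 to 72390 on the controls and 16378 to 62019 on the transgenic arrays. Markers of crypt base and cycling cells stood at 0.65 for replicate 1 and -0.81 for replicates 2 and 3, with a summed signal of 8596 to 9916 on the controls against 4800 to 11337. Olfm4 and Ascl2 were lower and 0 of 11 higher, and without transgenic replicate 1 there were 8 lower. Paneth cell markers were at 1.19 and -1.31, with 0 of 5 passing and sums of 11638 to 12395 and 5375 to 20543, and all 5 were lower without transgenic replicate 1. Markers of B and plasma cells (1 of 9 higher, sums 3204 to 3465 and 3800 to 4648), of macrophages, dendritic cells and neutrophils (1 of 12 higher, 1480 to 1754 and 1075 to 1590) and of stroma, muscle and vessel (1 of 12 lower, 1220 to 1303 and 969 to 1085) had medians within 0.15 of the controls on both. A sum follows its brightest marker, for B and plasma cells Xbp1, with means of 11.34 (controls) and 11.67 (transgenic). Xbp1 was not called on all arrays, and the called gene was Blnk. Ms4a1 (4.54 and 4.55), Cd79a (4.52 and 4.69) and Pax5 (6.01 and 5.92) were dim and not called. For macrophages, dendritic cells and neutrophils it was Lyz2, at 9.64 on the control mean and 9.80, 8.20 and 7.79 on transgenic replicates 1, 2 and 3. All but Blnk were named after their values were seen. Goblet cell markers (2 of 7 lower) and enteroendocrine markers (3 of 8 lower) were both at -0.77 on transgenic replicate 1, and 0 of 6 tuft cell markers passed. On those 5 arrays there were 4 goblet cell markers lower, 1 enteroendocrine marker higher and 3 lower, 2 of B and plasma cells higher, 2 of macrophages, dendritic cells and neutrophils higher and 3 lower, 2 of stroma lower and 0 of tuft cells called. Of the 12 epithelial markers 1 was then higher and 3 were lower. The part of these shifts, with or without that array, in the family differences was not tested.

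**Figure D4:**
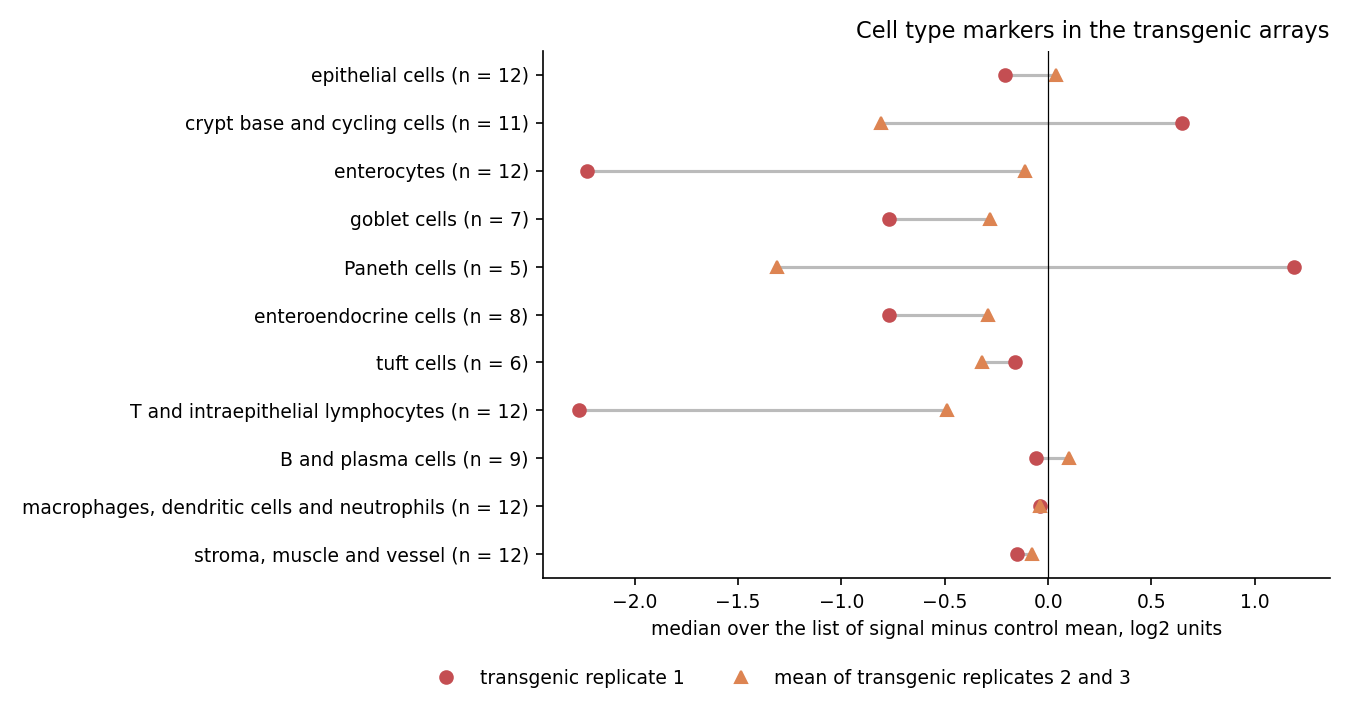
Median over each marker list of the signal minus the control mean (horizontal axis, log2 units) for transgenic replicate 1 (circles) and for transgenic replicates 2 and 3 averaged (triangles), with the number of measured markers in brackets. Enterocyte and lymphocyte markers lie at -2.23 and -2.27 on replicate 1, and crypt and Paneth cell markers lie on opposite sides of 0.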

How the data were processed

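The deposited values are log2 signals of 6 arrays, 250 ng of total RNA each, made by the authors with RMA (background correction, quantile normalization and probe summary) in Partek 6.5, per the submitters' processing notes. Its settings are not stated in the labels, and RMA compresses dim signals. The table has 35399 rows. Of these 21789 have 1 gene symbol, 1621 several and 11989 none. For genes with several rows the row with the highest mean was kept, leaving 19938 genes.

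Samples were grouped by title. The groups were compared with limma 3.58.1 in R 4.3.3 (lmFit, eBayes) over all genes, with Benjamini-Hochberg adjustment and a call at an adjusted p under 0.05, and ± is an SD. The test was checked on simulated data with independent arrays and the same SD in both groups. That check does not cover an array that stands apart, as transgenic replicate 1 does. "Rose" and "fell" are used of called genes. The genes, lists and rules were chosen with earlier results of these data known, and the promoter motifs after the differences were seen. From each pathway list up to 4 called genes with the smallest p are named, from marker lists up to 3, and all measured genes of the family. Only genes with a row of 1 symbol count as measured.

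Alternatives were quantile normalization, equal medians, removal of the dimmest 40% of genes, replicate blocks, trend and robust eBayes, array weights, mean of rows, all rows, an adjusted p under 0.1 and leaving out each array.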

Additional observations from a re-analysis of the deposited data

How the results depend on the processing

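Over 16 alternative settings for each of the 10 genes, 160 values in all, 135 kept their direction and side of the threshold, 18 lost the call, 4 gained it and 3 changed sign. The sign changes were of Bid, at 0.03 without control replicate 2 and 0.01 without transgenic replicate 2 or 3, in a range of -0.23 to 0.03 over the 6 fits. Mcl1 lost its call with all rows tested (0.0599) and with trend and robust eBayes (0.065), and the gains were of Bak1 and Bcl2l1, without transgenic replicate 1 and with array weights. The weight of transgenic replicate 1 was 0.12, against 0.615 to 3.629 for the other arrays. Weighting thus comes near to leaving that array out and is no separate result. The median over the 10 genes moved from 0.05 to between -0.02 and 0.07 with 1 array left out.

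Deviations from the group means correlated at -0.07, -0.168 and -0.122 for arrays with the same replicate number in the titles. For the other pairs the values were -0.023 to 0.153. With 3 arrays a group, whose deviations cancel within the group, these values cannot show whether the title numbers pair the samples. With the title numbers as a replicate block 0 of the 10 genes were called higher (2 without it) and 0 lower (1). Over all genes 384 were then higher (1204) and 349 lower (1164). The other lists then had 0 calls in the rest of the family (2), 0 of caspases (3), 0 of apoptosis inhibitors (2), 1 of death receptor genes (3) and 3 of regulators (7). The sample descriptions carry other numbers than the titles, and only 2 pairs share one, control and transgenic replicates 2 and 3. With a replicate block by these numbers, in which replicate 1 of each group adds nothing to the difference, 1 residual degree of freedom is left and limma gave every gene the same SE, 0.176, so the calls rest on an assumed common spread: 2056 genes were higher and 1963 lower, with 7 binding partners (4), 5 apoptosis inhibitors, 7 death receptor genes and 11 regulators called.

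Array weights gave 2846 genes higher and 2924 lower, with 3 of the 10 higher and 2 lower. Of the lists, 5 of the rest of the family, 13 binding partners, 7 caspases, 6 apoptosis inhibitors and 6 death receptor genes were then called. Trend and robust eBayes gave 965 genes higher and 1011 lower, with 1 of the 10 higher and 1 lower. It called 1 of the rest of the family and 1 apoptosis inhibitor. Testing all rows gave 1 of the 10 higher, 0 of the rest of the family, 1 caspase gene and 0 apoptosis inhibitors. The rest of the family had 1 call after quantile normalization, beside 1176 genes higher and 1239 lower. It had 1 with the dimmest genes removed, beside 1202 higher and 1138 lower. At an adjusted p under 0.1 there were 8 binding partners, 5 caspase genes and 4 apoptosis inhibitors. For this threshold and for all rows tested the counts over all genes are not given here, so the list counts stand without a background. Leaving out 1 array gave 0 to 3 of the 10 higher and 0 to 2 lower, 359 to 2800 genes higher and 324 to 2900 lower, 0 to 3 of the rest of the family, 2 to 12 binding partners, 0 to 6 caspases, 0 to 5 apoptosis inhibitors, 1 to 7 death receptor genes and 3 to 13 regulators, with the highest of each without transgenic replicate 1. The cause of these changes was not tested. Signal over background was not analysed here, so how far it limits dim genes is unknown.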
